A study of Mus musculus with 4 samples.

Results

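Dense narrow islands of histone H4 lysine 16 acetylation (H4K16ac) were described that were called in embryonic stem cells (ESC), had no called counterpart in neural progenitor cells (NPC), and still lay close to an NPC island. An island is a stretch in which neighbouring windows of the genome hold more ChIP-seq reads than the background. The members were chosen from the island lists of both cell types on chromosomes 1 to 19. They were ESC islands of at most 2000 bp, with a density of at least 120 and below 200 reads per kb of island, that shared no base with an NPC island but lay less than 50 kb from one, edge to edge. In all, 2906 of 39508 autosomal ESC islands met this rule (7.36%). The rule used ESC width, ESC reads and the position of the nearest NPC island, so these values describe the members and test nothing.

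The NPC were 46c cells differentiated for 5 days with NB27 and Neuro2 supplements and sorted by FACS for GFP, and the ESC were undifferentiated cells of the same line. The 46c line carries a GFP reporter at Sox1, a transcription factor gene of early neural progenitors, so the sort selects cells in which the reporter is on. Each cell type had 1 H4K16ac library, made from chromatin cut with micrococcal nuclease, and 1 input library. All cells came from this 1 line. Gene annotation of the build, mm9, was not used here, so the cell types were not checked at marker genes and positions are given without gene names. With 1 library per cell type no difference between NPC and ESC had a replicate check, and no p-value was computed.

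H4K16ac is set mainly by the acetyltransferase MOF (KAT8) and removed by deacetylases. It lies on the H4 tail, in the stretch that touches the acidic patch of the neighbouring nucleosome, and loosens the packing of nucleosome arrays in vitro. In cells it is found at active promoters, over active gene bodies and at enhancers, and it marks the hyperactive male X chromosome of Drosophila.

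The islands of the deposited lists held 24386370 reads in NPC and 17935144 reads in ESC, and each list gives reads inside islands only. The depth of each whole library is therefore unknown, and absence from a list does not show absence of the mark. Of all autosomal ESC islands, 59.2% shared no base with an NPC island, and 42.6% shared none and lay less than 50 kb from one. Both shares come from the contrast that the rule used. Below, intervals are exact Clopper-Pearson 95% intervals for shares, order-statistic 95% intervals for medians and exact Poisson 95% intervals for single counts. They cover counting error, treat islands as independent draws, and do not cover variation between cultures.

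The members were small, read-rich islands, with median densities of 140 to 148 reads per kb at widths of 600 to 2000 bp and of 175 reads per kb at 400 bp. They held 60 to 399 reads, with a median of 177 (174 to 181), for which counting error alone is 7.52%. The middle of the density range lay between 130.5 and 162.9 reads per kb, with a median of 144. Widths ran from 400 to 2000 bp in steps of the 200 bp window, with a median of 1200 bp. The commonest width was 800 bp, with 487 members, and the rarest was 400 bp, with 35. Width and density were nearly unrelated among members (Spearman rho -0.013 over 2906 islands that share 1 library). The rule bounds both, so this value holds within its limits only. Among all ESC islands of at most 2000 bp, the median width was 2000 bp below 80 reads per kb and 1600 bp at 80 to below 100. It was 1400 bp at 100 to below 120 and between 1000 and 1200 bp in the bins from 120 to below 200. Together the members held 536020 reads, or 3.04% of autosomal ESC island reads, on 1.91% of the autosomal ESC island bases.

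The 5 members with the most reads were all 2000 bp wide. The first lay on chromosome 6 at 95607201 to 95609200 (mm9, as all positions) with 399 reads (361 to 440), at 199.5 reads per kb, which made it also the densest member. Its nearest NPC island, at 95624001 to 95627200, held 206 reads at 64.4 reads per kb and began 14.8 kb away. The second lay on chromosome 11 at 121533601 to 121535600, with 394 reads, between NPC islands 10.8 and 11.6 kb away. NPC islands covered 48.4% of the 100 kb around it, against 12.7% for other ESC islands. Chromosome 13 held 2 of the other 3, which began at 114584001 with 386 reads and at 8807601 with 382 reads, 32.2 and 14.8 kb from NPC islands. The last began at 47440201 on chromosome 14, with 386 reads and an NPC island 17.6 kb away. None of the 5 nearest NPC islands overlapped an ESC island. Over all members the nearest NPC island did so for 28.9%. The densities of these 5 NPC islands lay between 61.7 and 81.6 reads per kb. These NPC densities were below 120 reads per kb, the lowest the rule admits in ESC. That held for most NPC islands, of which 1.55% on the autosomes had at least 120 reads per kb. The densities are raw reads from libraries of unknown depth.

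Islands crowded at the low density limit and were sparse at the high one. Members of 120 to below 130 reads per kb numbered 664, beside 767 otherwise fitting islands of 110 to below 120. Members of 190 to below 200 numbered 98, beside 51 otherwise fitting islands of 200 to below 210. The lowest members had exactly 120 reads per kb, among them 3 on chromosome 1, at 39784201 to 39785200 with 120 reads, 43883801 to 43885200 with 168 reads and 162722001 to 162723600 with 192 reads. Just below the limit stood the islands that began at 96531001 (chromosome 3) and 143047601 (chromosome 6), each with 239 reads and 119.5 reads per kb, and at 104695401 (chromosome 2), with 215 reads and 119.4 reads per kb. After the chromosome 6 island named above, the densest members were 3609201 to 3611000 on chromosome 13, with 359 reads, and 12381401 to 12383000 on chromosome 7, with 319 reads, both at 199.4 reads per kb. Just above the limit, with 200 reads per kb, stood the islands that began at 67590601 (chromosome 3), 23811601 (chromosome 6) and 30857001 (chromosome 7). The width limit cut a continuous range as well, with 231 members of 2000 bp and 194 otherwise fitting islands of 2200 bp. Lowering the density limit to 100 reads per kb gave 4512 islands and raising it to 140 gave 1696.

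NPC islands as narrow and as read-rich as the members were uncommon. Among islands of at most 2000 bp, 621 of 8804 in NPC (7.05%) and 6903 of 12913 in ESC (53.5%) had at least 120 reads per kb. The members were chosen by that density and the NPC islands were not, so the next values describe them side by side and test nothing. At 1200 bp, 429 members held 144 to 238 reads, with a median of 176. The 1053 NPC islands of that width had a median of 112 reads, and 4 of them (0.38%) reached 176. At 2000 bp, 231 members had a median of 284 reads, while 1650 NPC islands had a median of 155 and 1 of them reached 284. At 800 bp the medians were 112 reads in 487 members and 89 reads in 536 NPC islands, of which 28 (5.22%) reached 112. At 400 bp the medians were 70 reads in 35 members and 62 in 60 NPC islands. Single NPC islands reached the members' range at every width, with up to 255 reads at 1200 bp and 458 reads at 2000 bp. These are raw reads. The NPC list holds more of them in all, but its islands also cover more of the autosomes (12.4% against 7.68% in ESC). The totals therefore do not give the depth of either library.

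**Figure D1:**
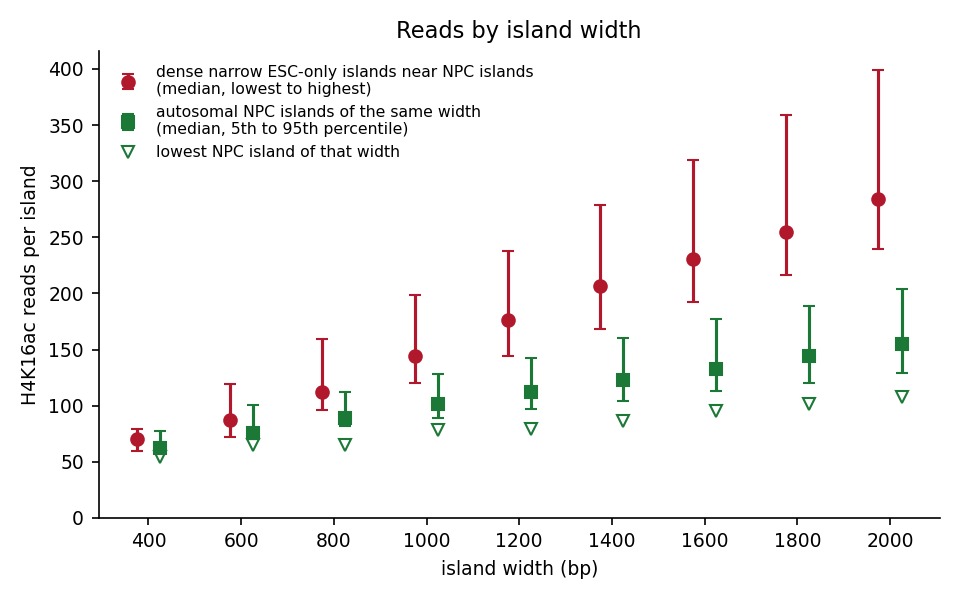
H4K16ac reads per island (y axis) by island width in bp (x axis) for dense narrow ESC-only islands near NPC islands (circles, median with lowest to highest) and for autosomal NPC islands of the same width (squares, median with 5th to 95th percentile; open triangles, lowest). The plotted bars overlap at 400 to 1000 bp, and at 1200 bp the median is 176 reads in the ESC-only islands and 112 in NPC islands. The lower ends of the circles' bars are set by the density limit, and NPC islands above the 95th percentile are not drawn.

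The lowest called NPC island had 79 reads at 1200 bp, with a 5th percentile of 97, and 108 reads at 2000 bp. How many NPC reads lay at the member sites is not in the list, and calls also depend on the background of each library, which was not used here.

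Among narrow ESC islands, the share near but outside NPC islands was lower at higher density within the range of the rule, and about level below it. Of ESC islands of at most 2000 bp, 55.4% were ESC-only and within 50 kb of an NPC island below 80 reads per kb, 57.0% at 80 to below 100 and 57.4% at 100 to below 120. That share was 49.5% at 120 to below 140, 43.8% at 140 to below 160, 39.9% at 160 to below 180 and 35.7% at 180 to below 200 reads per kb. Over the same 4 density bins, the share 50 kb or more from NPC islands went up from 40.3% to 54.5%, while the overlapped share stayed between 6.76% and 10.1%. At 200 reads per kb and above the order changed, with 41.3% near, 30.3% far and 28.4% overlapped among 327 islands. Among dense narrow ESC-only islands as a whole, 2906 of 5979 lay near NPC islands (48.6%, 47.3% to 49.9%). The share was 40.1% at 800 bp and 64.0% at 2000 bp, so that from 800 bp upward wider dense islands more often lay near NPC islands; it was 55.6% among the few of 400 bp. It was 26.0% when only NPC islands of at least 313 reads, the median of their list, were counted.

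**Figure D2:**
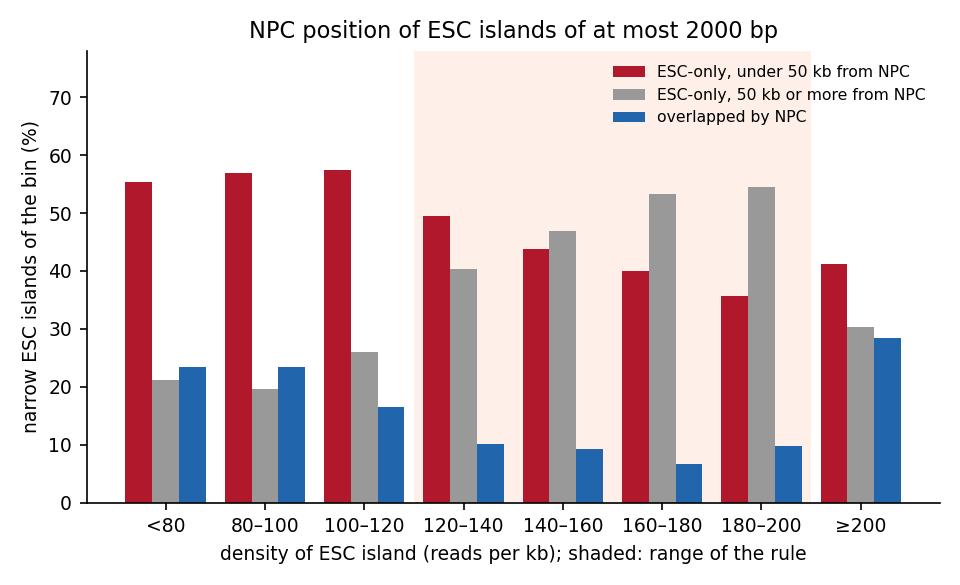
Percent of narrow ESC islands (at most 2000 bp, y axis) in each density bin in reads per kb (x axis) that were ESC-only and near NPC islands, ESC-only and far from them, or overlapped by an NPC island. Shading marks the 4 bins of the rule, over which the near share goes from 49.5% in the lowest bin to 35.7% in the highest, while the far share goes from 40.3% to 54.5%.

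The nearest NPC island was usually at a distance of several island widths, with no preferred side. The median distance was 14.4 kb (13.4 to 14.8), and the middle of the range lay between 6.6 and 27.8 kb. The nearest NPC island lay to the left of 1431 members, to the right of 1461 and at equal distance on both sides of 14. Members numbered 219 below 2 kb, 305 from 2 to below 5 kb, 554 from 5 to below 10 kb, 987 from 10 to below 25 kb and 841 from 25 to below 50 kb. Per kb of distance these were 110 members below 2 kb, 101.7 from 2 to 5 kb, 111 from 5 to 10 kb, 65.8 from 10 to 25 kb and 33.6 from 25 to 50 kb. Members per kb were thus about level over the first 10 kb and fewer beyond it. The rule used this distance, and a closer NPC island always takes the place of a farther one. A fall with distance is therefore in part built into the measure, and the counts per kb were made for the members only.

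At the near end, 2 members touched an NPC island without sharing a base. One was 135880001 to 135881800 on chromosome 5, with 220 ESC reads, followed directly by an NPC island of 9 kb with 688 reads. The other was 59352601 to 59353000 on chromosome 13, with 66 ESC reads, next to an NPC island of 2.8 kb with 225 reads. The third nearest, 126958401 to 126960400 on chromosome 2, had 268 reads and lay 0.2 kb from an NPC island of 33.6 kb. That NPC island overlapped an ESC island. The other ESC island nearest to the member was 19.2 kb wide, lay 1 kb away and overlapped NPC. At the far end, 5 members lay 49.8 kb away, among them 65156001 to 65157800 on chromosome 1, 17415401 to 17416400 on chromosome 5 and 59134401 to 59136000 on chromosome 7, with 233, 126 and 202 reads. Just outside stood 81459201 to 81460400 on chromosome 10 at 50 kb and 64037601 to 64038600 and 125977601 to 125979600 on chromosome 2 at 50.2 kb, with 152, 148 and 328 reads. The limit had no gap around it: 139 members lay at 45 to below 50 kb, and 134 otherwise fitting islands at 50 to below 55 kb.

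NPC islands beside the members were narrower than NPC islands in general and of about the same density, which was not particular to the members. The nearest NPC island had a median width of 3000 bp (2800 to 3000), against 4200 bp in the autosomal NPC list. Its median density was 75.2 reads per kb (74.6 to 75.8), against 76.6 reads per kb in the list. Islands of at least 8 kb made up 13.6% (12.3% to 14.9%) of these neighbours and 24.2% of the list. The nearest NPC island had at least 120 reads per kb beside 105 members (3.61%), against 1.55% of the list. Beside dense narrow ESC-only islands 50 kb or more from NPC, its median width was 2000 bp. It was at least 8 kb wide for 1.85% of them and had at least 120 reads per kb for 4.17%. Beside narrow ESC-only islands below 120 reads per kb and less than 50 kb from NPC, its median width was 3400 bp. The same 2 shares were 17.5% and 2.25% there. The 2906 members had 2684 different nearest NPC islands, and counted once each these had the same median width of 3000 bp. One NPC island was the nearest of 7 members, and 420 members shared their nearest NPC island with another member. With only NPC islands of at least 313 reads counted, the median width was 7200 bp, since that minimum removes the small islands.

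The NPC neighbour was wider the closer it lay. Its median width was 4800 bp beside members below 2 kb, 4000 bp from 2 to 5 kb, 3400 bp from 5 to 10 kb, 2800 bp from 10 to 25 kb and 2600 bp from 25 to 50 kb. Its density changed little over the same bins, at 76.7, 76.6, 75.2, 75 and 74.2 reads per kb. Median NPC cover of the 100 kb around the members went from 28.1% below 2 kb to 2.85% from 25 to 50 kb. The neighbour itself is part of that cover, and no other kind of island was set beside these bins. The members themselves were alike across the bins, with a median width of 1200 bp in each and median densities of 141, 142, 142.5, 146 and 146 reads per kb. Member density and the density of the nearest NPC island were unrelated (Spearman rho -0.0022 over 2906 members).

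The widest nearest NPC islands were broad domains with a member at some distance from an end. On chromosome 8, the member at 119993601 to 119995200 had 198 reads and lay 10.4 kb from an NPC island of 47.4 kb with 4579 reads. Its nearest ESC neighbour was itself an island of 46 kb with 3773 reads that overlapped NPC. On chromosome 1, the member at 138036601 to 138037200 had 89 reads and sat between NPC islands 0.8 and 1.2 kb away, the nearer being 45.6 kb wide with 4042 reads. NPC islands covered 93.8% of the 100 kb around it, and other ESC islands covered 2.82%. Also on chromosome 1, the member at 191744601 to 191746600 had 251 reads and lay 5.6 kb from an NPC island of 45.2 kb with 3611 reads. These 3 places differ: in the second the broad NPC island had no ESC counterpart, and in the others it did.

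Most NPC neighbours were called in NPC only. The nearest NPC island overlapped an ESC island for 839 of 2906 members (28.9%, 27.2% to 30.6%), against 34.6% of all autosomal NPC islands. The share was 21.6% (20.2% to 23.1%) for dense narrow ESC-only islands 50 kb or more from NPC. Beside narrow ESC-only islands of moderate density (below 120 reads per kb, also less than 50 kb from NPC islands) it was 34.7% (33.1% to 36.3%). For 1622 members (55.8%) the nearest NPC island was NPC-only and the nearest other ESC island was ESC-only. The same held for 45.9% of all 16825 autosomal ESC-only islands less than 50 kb from NPC, and for 50.1% of moderate islands. For 504 members (17.3%) the nearest ESC and the nearest NPC island overlapped each other, against 22.6% of those 16825 islands and 20.3% of moderate islands.

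The surroundings of the members were covered more by NPC than by ESC islands, as were the autosomes as a whole. By the medians, both covers were lower than around ESC islands in general. In the 100 kb centred on a member, leaving out the member itself, the median covered share was 7.47% in NPC (6.90% to 7.94%) and 4.44% in ESC (4.08% to 4.97%). Around all autosomal ESC islands the medians were 16.4% in NPC and 12.0% in ESC. They were 15.6% and 7.89% around overlapped islands, 12.2% and 8.35% around moderate islands, and 0 in both lists around far islands. NPC islands covered more than ESC islands around 1951 members (67.1%, 65.4% to 68.8%), against 52.5% of all autosomal ESC islands. The rule requires an NPC island nearby and so bears on this count. The same share was 68.3% for dense narrow islands overlapped by NPC and 62.6% for moderate islands near NPC. Cover was uneven among members: its mean over the 50 kb on either side was 14.1% in NPC and 9.75% in ESC, well above the medians, against 12.4% in NPC and 7.68% in ESC across the autosomes up to the last island of each. The medians were 15.04% in NPC and 11.4% in ESC with only NPC islands of at least 313 reads counted, and 18.9% in NPC and 8.64% in ESC with a distance limit of 10 kb. On average the first kb beyond a member's edge was almost empty in both lists, at 0.409% in NPC and 0.262% in ESC. The rule of no shared base bears on the first value. The 600 bp gap setting of the calls, which joins close ESC islands, bears on the second. ESC cover of that kb was also low around overlapped (0.737%), moderate (0.543%) and far islands (0.052%). Between 10 and 11 kb the mean cover was 13.5% in NPC and 8.30% in ESC, and between 49 and 50 kb it was 17.9% and 11.5%. NPC and ESC cover went together across members (Spearman rho 0.543 over 2906 members, whose windows partly overlap).

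**Figure D3:**
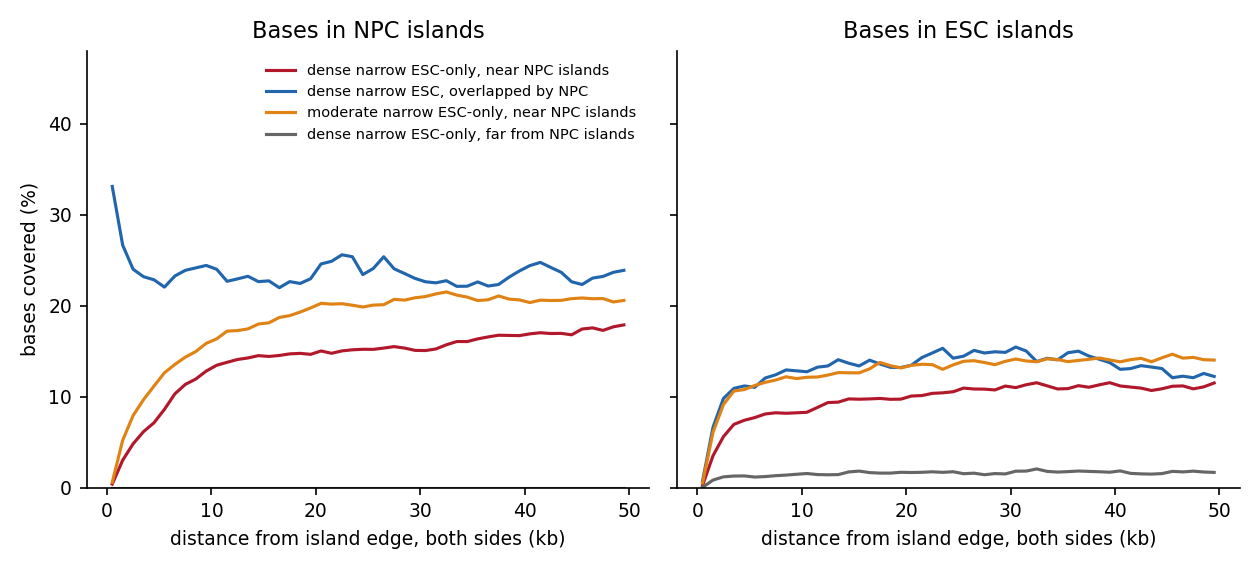
Mean percent of bases in NPC islands (left panel) and in other ESC islands (right panel) in bins of 1 kb (y axis) by distance from the island edge in kb, both sides together (x axis), around 4 kinds of narrow ESC island. Cover around dense narrow ESC-only islands near NPC islands goes up over the first 10 kb to 13.5% in NPC and 8.30% in ESC and stays under that around moderate and overlapped islands. Cover around the far islands is 0 in NPC within 50 kb by the rule and stays between 0.052% and 2.08% in ESC.

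An NPC island lay within 50 kb on both sides of 1367 members (47.0%, 45.2% to 48.9%), against 57% of all autosomal ESC islands. The share was 57.2% (55.5% to 58.9%) for narrow islands of moderate density near NPC islands, and 56.4% (52.4% to 60.5%) for dense narrow islands overlapped by NPC. At the widths of the members these came to 55.2% and 55.9%. NPC position and ESC density are values that the rule used, so these shares are a description.

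ESC neighbours were not used by the rule directly, and in them the members stood between the other kinds of dense narrow island. The NPC distance limit still bears on them, since it leaves far islands little room for a close ESC island that overlaps NPC. Another ESC island lay within 10 kb of 979 members (33.7%, 32.0% to 35.4%), against 53.1% of all autosomal ESC islands. The share was 10.3% (9.29% to 11.5%) for the 3073 dense narrow ESC-only islands that lay 50 kb or more from NPC islands. It was 41.4% (37.4% to 45.4%) for the 597 dense narrow islands overlapped by NPC, and 44.95% (43.3% to 46.6%) for the 3426 narrow islands of moderate density near NPC islands. Weighting these 3 groups to the widths of the members gave 11.6%, 40.2% and 43.3%, in the same order. The median distance to the nearest ESC island was 18.8 kb (17.4 to 19.8) for members, 56.2 kb for far islands, 14.0 kb for overlapped islands and 12.2 kb for moderate islands. Members thus lay nearer to other ESC islands than dense narrow islands far from NPC did, a contrast that is in part built into the distance limit.

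**Figure D4:**
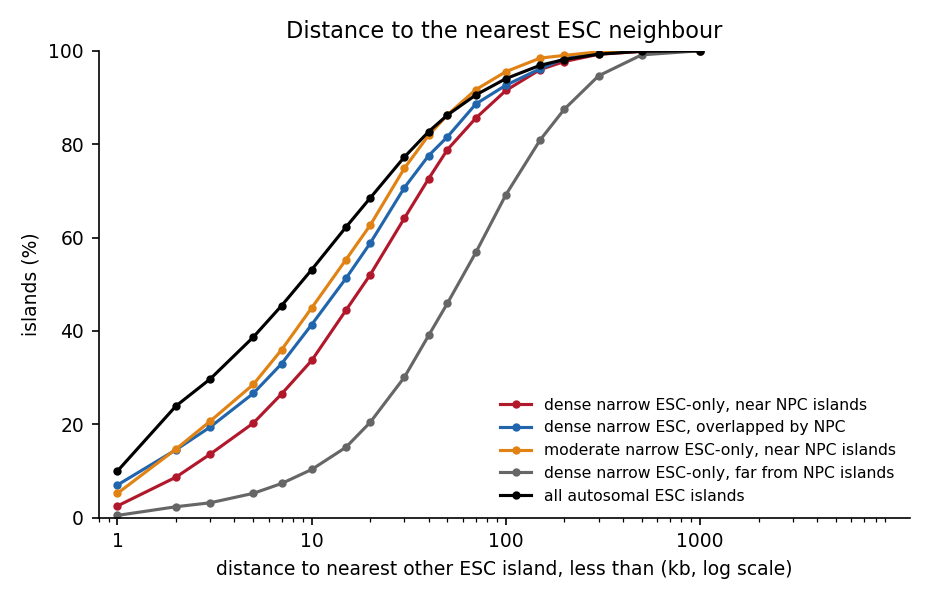
Cumulative percent of islands (y axis) whose nearest other ESC island lay less than the given distance away in kb (x axis, log scale), for 4 kinds of narrow ESC island and for all autosomal ESC islands. At 10 kb the dense narrow ESC-only islands near NPC islands stand at 33.7%, those far from NPC islands at 10.3% and all ESC islands at 53.1%.

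ESC islands nearest to members were, by their medians, narrower and denser than those nearest to ESC islands in general. In median width these neighbours stood at 2400 bp, against 3200 bp for the neighbours of all autosomal ESC islands. In median density they stood at 101 reads per kb, against 91.2. The rule bounds the width and density of members, so a contrast between a member and its own neighbour is in part built in. The nearest ESC island was itself dense and narrow (at least 120 reads per kb, at most 2000 bp) for 680 members (23.4%, 21.9% to 24.98%). Over all autosomal ESC islands it was so for 16.3%. That share was 20.3% for overlapped islands and 14.1% for moderate islands. For far islands the nearest ESC island had a median width of 1200 bp and a median density of 137 reads per kb, and it was dense and narrow in 60.5% (58.7% to 62.2%). The nearest ESC island overlapped NPC for 963 members (33.1%, 31.4% to 34.9%), against 42.4% of all autosomal ESC islands. It did so for 3.71% of far islands, for which the distance limit leaves little room, for 47.2% of overlapped islands and for 36.2% of moderate islands. Broad ESC islands of at least 8 kb were the nearest neighbour of 222 members (7.64%, 6.70% to 8.67%), against 16.5% over all ESC islands. They were so for 12.1% of overlapped, 10.3% of moderate and 0.521% of far islands.

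The closer a member lay to NPC islands, the more often it also had a close ESC island. Another ESC island lay within 10 kb of 123 of 219 members below 2 kb from NPC (56.2%), of 158 of 305 from 2 to 5 kb (51.8%) and of 215 of 554 from 5 to 10 kb (38.8%). It did so for 284 of 987 from 10 to 25 kb (28.8%) and for 199 of 841 from 25 to 50 kb (23.7%). The share whose nearest ESC island overlapped NPC was 60.3% below 2 kb and 17.95% from 25 to 50 kb. An ESC island that overlaps a close NPC island is likely to be close as well, so the distance itself bears on the shares within 10 kb. No other kind of island was set beside them. Distances to the nearest NPC and ESC islands had a Spearman rho of 0.256 over the 2906 members.

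Members occurred on every autosome at a similar rate. There were 1.18 per Mb over all autosomes, with a range from 1.03 on chromosome 3 to 1.497 on chromosome 13. The dense narrow islands far from NPC islands ranged more widely, from 0.636 per Mb on chromosome 19 to 1.79 on chromosome 3. The near share of dense narrow ESC-only islands was therefore lowest on chromosome 3, at 36.4%, and highest on chromosome 11, at 66.7%. Chromosomes 3 and 11 are also the least and the most covered by NPC islands, at 6.03% and 19.9%. Over the 19 chromosomes, members per Mb had a Spearman rho of 0.237 with the NPC covered share, and far islands per Mb one of -0.691. The points share both libraries, and the distance rule ties the far count to NPC cover.

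**Figure D5:**
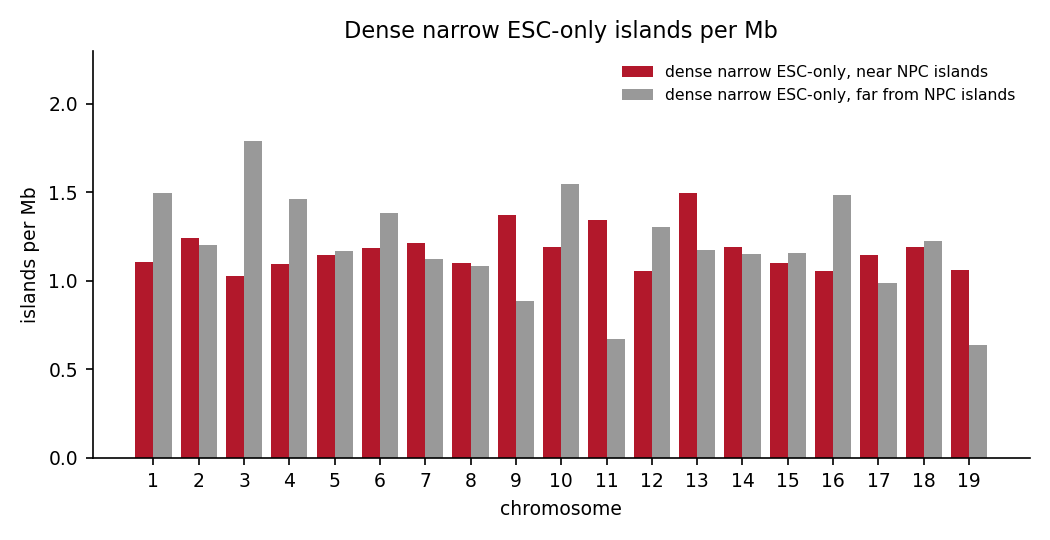
Dense narrow ESC-only islands per Mb (y axis) on each autosome (x axis), near NPC islands (left bars) and far from them (right bars), up to the last island of the chromosome. Near islands lie between 1.03 and 1.497 per Mb on all 19 chromosomes, while far islands run from 0.636 per Mb on chromosome 19 to 1.79 on chromosome 3.

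Members were mostly single, with a few local clusters. Another member lay within 50 kb of 609 members (21.0%, 19.5% to 22.5%) and within 10 kb of 167 (5.75%, 4.93% to 6.66%). Counted within each kind, the shares within 50 kb were 26.6% for far islands, 7.71% for overlapped islands and 26.6% for moderate islands, and those within 10 kb were 3.84%, 1.01% and 7.85% in the same order. Members thus stood below far islands within 50 kb and above them within 10 kb. Such shares depend on how many islands a kind has, with 597 overlapped islands against 2906 members, 3073 far and 3426 moderate islands. With the lower density limit at 140 reads per kb, which thins the list, the members' share was 13.7%, and with a distance limit of 10 kb it was 9.74%. Of 2482 windows of 1 Mb, 1479 held a member and 55 held 5 or more. Of runs in which successive members lay less than 10 kb apart, 75 had 2 members, 3 had 3 and 2 had 4.

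The largest clusters lay on chromosome 13. The window from 22000001 to 23000000 held 12 members with 87 to 313 reads, which made up 12 of its 23 ESC islands. NPC islands covered 1.60% of it and ESC islands 4.20%. The adjoining window from 23000001 to 24000000 held 10 members among 43 ESC islands, with NPC cover of 2.28% and ESC cover of 11.7%. These 2 windows held 8 and 14 NPC islands, with median widths of 1900 and 1500 bp, and their members lay 3.4 to 44.6 kb from the nearest NPC island. Window 74000001 to 75000000 had 11 members among 39 ESC islands in a different setting, with 28 NPC islands that covered 20.1% against 14.8% in ESC. In the first pair of windows ESC cover was the higher, and in the third NPC cover was.

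Both runs of 4 members fell in such clusters. On chromosome 13, members at 23589801, 23591601, 23595801 and 23598001 held 133, 270, 77 and 268 reads within 10 kb, at 149 to 193 reads per kb. All 4 had the same nearest NPC island, at 23622201 to 23623400, with 145 reads at 121 reads per kb. On chromosome 18, members at 37646001, 37650601, 37658001 and 37665401 held 185, 136, 145 and 162 reads within 20.4 kb. Their nearest NPC island, at 37669601 to 37670200, was 3.2 kb beyond the last and held 69 reads. No other ESC island lay between the members of either run. The window of 1 Mb around the second run, from 37000001, held 9 members among 39 ESC islands and 4 NPC islands, with NPC cover of 1.34% and ESC cover of 7.62%.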

How the data were processed

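Per the submitters' processing notes, islands rest on SICER 1.1 and build mm9, with CASAVA 1.8.2, SAMtools 0.1.7, Bowtie 0.12.7 and bedtools 2.10.1 named beside it. The list names give SICER's settings as a 200 bp window, a 600 bp gap and an FDR of 0.01. The deposited lists hold 1 whole-number read count per island, as the authors left it, not scaled to depth or input. How duplicates and input were treated is not given in the sources used here. The column ends were read as the last base, which puts 100% of starts and widths on the window grid, and starts are printed counted from 1. Overlap meant 1 shared base. Distances were bases between edges. The members, classes and rules for named regions were chosen with earlier results of these data known. Named regions were those with most reads, at the limits of density and distance, with the widest NPC neighbour, in the fullest windows of 1 Mb and in the longest runs. No test was run. The distance code was tested on simulated data: it found all 12857 simulated overlap states and 6370 gaps, and on the real lists equalled bedtools 2.31.1 for 39508 islands. Sequence and gene-start results were not run, since no genome or annotation of mm9 was used here. The scripts ran on Python 3.11.15 (scipy 1.17.1, numpy 2.4.6, matplotlib 3.10.9, pandas 2.3.3).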

Additional observations from a re-analysis of the deposited data

How the results depend on the processing

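Other settings gave 93 values, of which 42 lay inside the interval printed in the report (for the number of islands, within 1.5 times) and 51 outside it. Leaving out the 3 windows of 1 Mb with most members, a setting chosen after seeing the data, moved none of the 10 values recomputed there out of its interval. Most settings change which islands are members; why each value moved was not tested. Unknown library depth limits the reading of every ESC-only call, and alternatives for sequence and gene starts were not run. No paired analysis was possible because each cell type had 1 library.

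Values are given in the order number, NPC on both sides, median distance, NPC neighbour width and density, ESC island within 10 kb, nearest ESC island overlapped, another member within 50 kb, NPC and ESC cover of 100 kb, and near share, as far as they moved. A lower density limit of 140 reads per kb gave 1696 islands, 44.2% on both sides, 31.8% within 10 kb, 13.7% with another member, cover of 6.31% and 3.97%, and a near share of 44.8%. A limit of 100 gave 4512 islands, 50.4%, 13.2 kb, 3200 bp, 37.3%, 29.4%, 8.86%, 5.68% and 54.3%. A width limit of 1400 bp gave 44.3% on both sides, 15 kb, 31.1%, 15.4%, cover of 6.46% and 3.64%, and 44.2%. A limit of 2600 bp gave 35.7% within 10 kb, 23.7%, cover of 8.27% and 5.47%, and 51.5%. NPC islands of at least 313 reads gave 1670 islands, 41.4%, 7200 bp, 74.2 reads per kb, 44.7%, 28.4% overlapped, cover of 15.04% and 11.4%, and 26.0%. Joining NPC islands across 2000 bp gave 3200 bp and 74.1 reads per kb. A distance limit of 25 kb gave 59.0% on both sides, 9.4 kb, 3200 bp and a near share of 34.5%, one of 100 kb gave 37.0%, 20.4 kb and 61.9%, and one of 10 kb gave 46.0% within 10 kb, 48.2% overlapped, 9.74% with another member and cover of 18.9% and 8.64%.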

Other observations

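On the X chromosome, which the rule leaves out, 31 ESC islands met the same width, density and distance limits, with a median of 181 reads and 149 reads per kb, beside 24 different NPC islands. Dense narrow ESC-only islands 50 kb or more from NPC islands numbered 556 there, so that 5.28% lay near, against 48.6% on the autosomes, and 8 dense narrow islands were overlapped by NPC. The X list holds few NPC islands, which bears on this share.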
